A study of Mus musculus with 2 samples.

Results

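The 4 genes described here are Egr1, Egr2, Egr3 and Egr4, which encode the early growth response (EGR) transcription factors. Every accessible region whose summit lay in the body of one of these genes, or within 50 kb on either side, was taken from the 2 deposited peak lists. The 4 loci held 45 of the 78016 peaks of replicate 1 and 43 of the 74653 peaks of replicate 2. Joined where they overlapped, these made 46 regions of 84666 in all, and 40 of the 46 were found in both libraries.

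In ATAC-seq a transposase cuts open chromatin and tags the cut ends for sequencing, so that a pile-up of insertions, a peak, marks an accessible stretch of DNA. There was 1 group, primary mouse T cells of the strain C57BL/6NJ, with 2 libraries labelled as biological replicates. Age, sex and developmental stage were not given, and the labels do not say if the 2 libraries stem from separate animals, since their donor record is shared. The linked methods concern CD4+ T-cell differentiation, and the peak names carry the words Th0 and 72hrs, which no source used here explains. With 1 group there was no comparison between conditions, so all values below are descriptions without a test.

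EGR factors are zinc-finger proteins that bind GC-rich DNA. Their genes are immediate early genes: they are transcribed within minutes of a stimulus from factors already present in the cell, without new protein synthesis. A classical route runs from the T-cell receptor through the kinase ERK to ternary complex factors such as ELK1, which sit on DNA together with serum response factor (SRF) at a site called the CArG box. The proteins NAB1 and NAB2 bind some of the EGR factors and repress them. In T cells, Egr2 and Egr3 are known for their part in anergy and in restraining effector responses, and Egr1 is widely used as an early mark of receptor signalling.

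Each peak carries a signal value, a ratio read here as enrichment over the local background of the library, and a −log10 q, the caller's confidence in the peak. A region was called a promoter where its summit lay within 1000 bp of the start of a protein-coding transcript, and distal otherwise. Distances are given from the first annotated start of the gene, with a minus sign for upstream.

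The sequences that the results turn on are shown first, each with the summit base and 100 bp on either side of it. They are the summits of the main Egr2 and Egr4 promoter regions and the strongest distal region of Egr2, Egr3 and Egr4. Egr2 and Egr3 are on the plus strand and Egr4 is on the minus strand, and each sequence reads 5′ to 3′ in the direction of its gene, from the mouse genome GRCm38 (mm10). The windows are chr10:67537441-67537641, chr10:67586310-67586510, chr14:70057072-70057272, chr6:85513627-85513827 and chr6:85477458-85477658, in the order shown. Capitals mark letters that match a searched consensus on either strand, and in the Egr2 promoter the CArG box and an NFAT match overlap in 1 run.
Egr2 promoter: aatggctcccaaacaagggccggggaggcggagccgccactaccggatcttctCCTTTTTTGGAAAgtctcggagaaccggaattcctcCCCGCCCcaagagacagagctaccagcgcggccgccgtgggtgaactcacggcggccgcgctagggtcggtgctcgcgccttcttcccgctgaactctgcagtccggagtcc
Egr2 distal, +50.9 kb: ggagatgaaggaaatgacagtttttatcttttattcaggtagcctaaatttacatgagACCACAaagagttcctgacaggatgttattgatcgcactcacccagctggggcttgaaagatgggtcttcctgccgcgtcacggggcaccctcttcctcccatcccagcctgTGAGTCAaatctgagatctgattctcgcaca
Egr3 distal, −20 kb: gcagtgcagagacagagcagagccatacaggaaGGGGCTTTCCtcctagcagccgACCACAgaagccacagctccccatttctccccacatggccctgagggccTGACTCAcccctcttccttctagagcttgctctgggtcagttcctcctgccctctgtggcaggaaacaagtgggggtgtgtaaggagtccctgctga
Egr4 promoter: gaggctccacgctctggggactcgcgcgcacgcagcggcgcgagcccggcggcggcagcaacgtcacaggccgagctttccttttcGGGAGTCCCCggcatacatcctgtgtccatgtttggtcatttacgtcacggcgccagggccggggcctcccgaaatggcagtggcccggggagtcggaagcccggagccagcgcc
Egr4 distal, +36.0 kb: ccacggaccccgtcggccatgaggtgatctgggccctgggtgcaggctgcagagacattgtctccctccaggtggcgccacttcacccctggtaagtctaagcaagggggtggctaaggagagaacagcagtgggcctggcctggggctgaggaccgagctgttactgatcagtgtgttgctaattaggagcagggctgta

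The capitals in the Egr2 promoter are the CArG box with its overlapping NFAT match, followed by an SP and KLF match. Both the Egr2 region at +50.9 kb and the Egr3 region at −20 kb hold a RUNX match and an AP-1 match, the site of Fos, Jun and BATF dimers, and the Egr3 one also holds an NF-kB match. The Egr4 promoter window holds an NF-kB match. None of the 9 searched patterns is in the Egr4 distal window.

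Across the series, 62.8% of 21853 protein-coding genes had a summit within 1000 bp of a start in both libraries, and 79.0% of all regions were found in both. The T-cell label was checked on marker promoters. All 10 T-cell markers had a promoter region in both libraries, with mean signal values from 2.53 at Cd2 to 10.9 at Lat. Of the markers of other cells, 1 of 5 myeloid markers (Spi1), 0 of 3 hepatocyte markers and 2 of 3 fibroblast markers (Col1a1 and Pdgfra) had one, as did the B-cell marker Pax5 and the erythroid marker Gata1. Of the other B-cell and myeloid markers reported, Cd14 had a promoter summit in replicate 1 alone, at 9.03 with its start covered by a peak in both libraries, and Cd79b had one in replicate 2 alone, at 3.18. No summit of either library lay within 1000 bp of a start of Cd79a, Ms4a1, Csf1r, Itgam or Lyz2. What other cells add to the EGR loci was not tested.

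**Figure D1:**
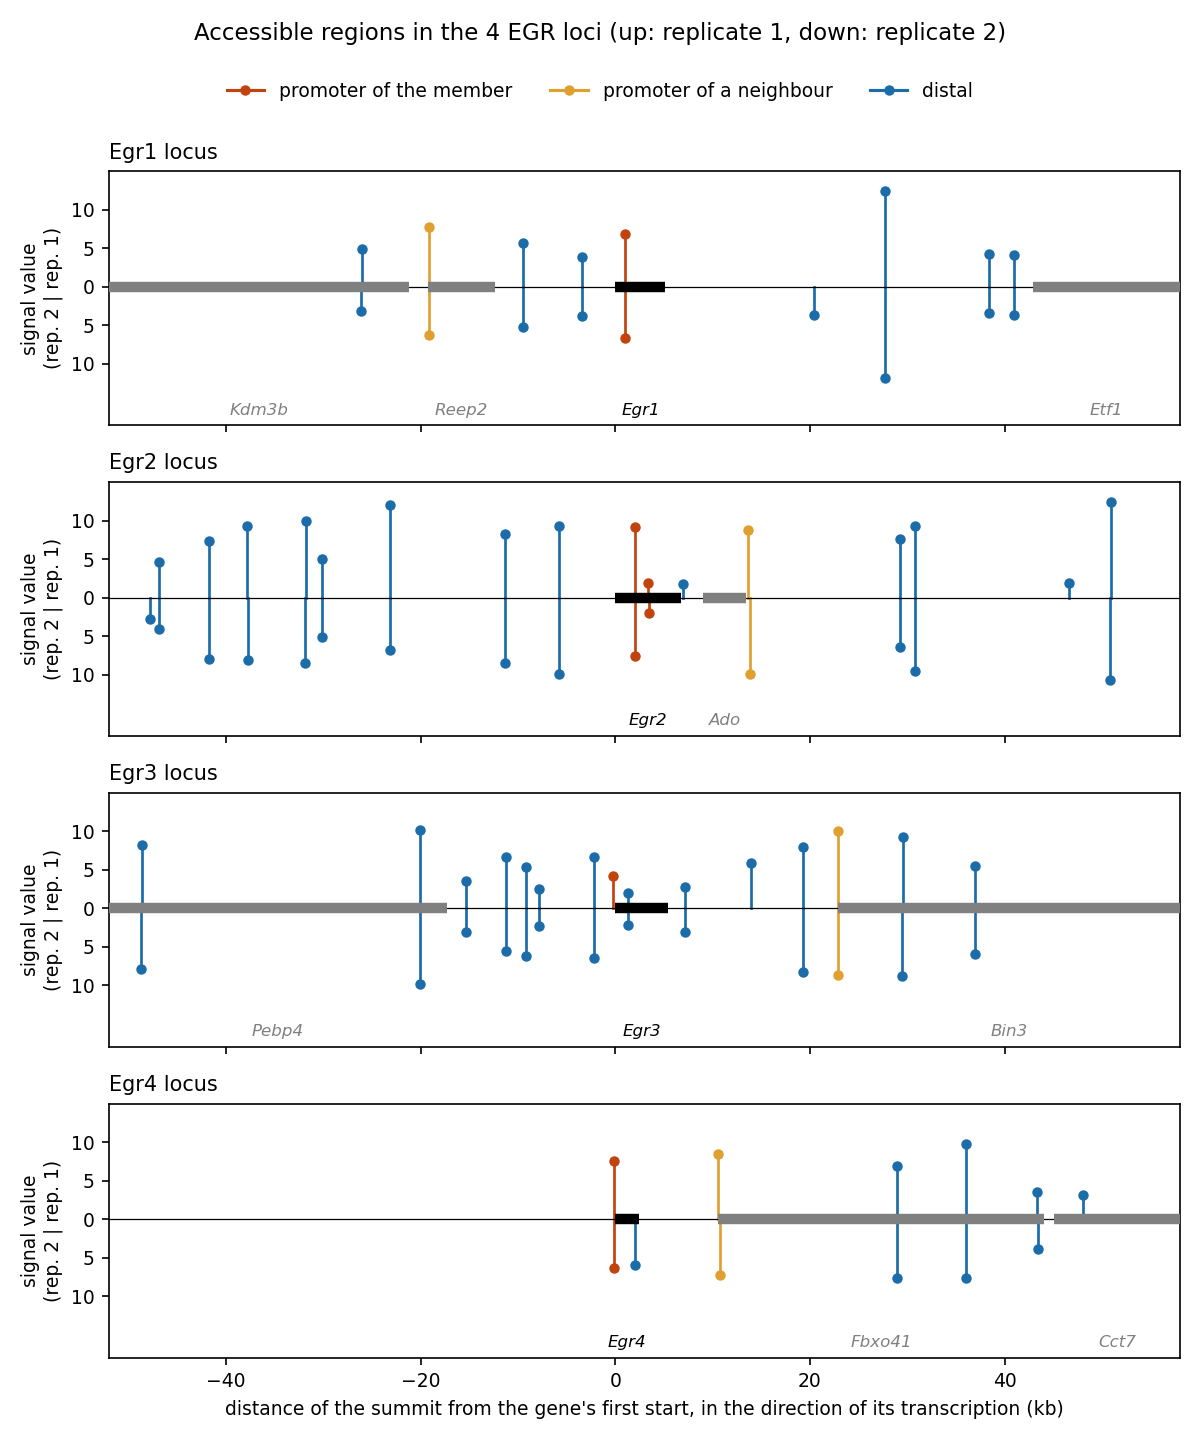
Summits in the 4 loci by distance from the gene's first start in its direction of transcription (x axis, kb), with the signal value of replicate 1 drawn upward and of replicate 2 downward (y axis). Bars on the zero line are gene bodies, and colours give the class of the peak; the Egr2 and Egr3 loci hold 11 and 12 distal regions in both libraries, and the Egr1 and Egr4 loci 6 and 3.

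Egr1 (ENSMUSG00000038418.7, chromosome 18, 34859823 to 34864984, plus strand) had 1 promoter region in both libraries. It covered 34859874 to 34861748, with a signal value of 6.88 in replicate 1 and 6.60 in replicate 2, or 6.74 ± 0.198 (SD, n = 2). Its −log10 q was 388 and 261. The annotation gives Egr1 2 coding starts, and the summit lay at 34860859, in an annotated UTR and 348 bp upstream of the second start at 34861207.

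The Egr1 promoter ranked low by signal value and high by −log10 q. Among the 13724 genes with a promoter in both libraries, its signal value stood at percentile 16.7 in replicate 1 and 16.3 in replicate 2. Its −log10 q stood at percentile 88.1 and 86.7. The peak was wide, at 1875 and 1831 bp, where the median promoter peak was 1254 and 1240.5 bp.

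Of the 6 distal regions around Egr1 found in both libraries, 1 stood above the rest. The region at +27.7 kb (34887016 to 34889271, intergenic) had signal values of 12.5 and 11.9 and a −log10 q of 310 and 210. In both libraries its signal value was above that of the Egr1 promoter and its −log10 q was below. The region was 2256 bp wide, and its summit window was 72.6% G and C with 20 CpG dinucleotides. Distal summits had a median of 48.3% and 2. No annotated start of any gene is nearer to its summit than the second Egr1 start, 26320 bp away. Width, GC content and CpG number were thus high at a site with no annotated start.

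The other Egr1 distal regions were weaker. The region at −9.5 kb had signal values of 5.67 and 5.21. That at −3.4 kb, 2305 bp wide, had 3.87 and 3.75, with a −log10 q of 137 and 92.8. Both are intergenic and lie between Egr1 and Reep2. Further out, the region at −26.0 kb, in an intron of the histone demethylase gene Kdm3b, had 4.97 and 3.18. The regions at +38.4 kb (4.22 and 3.39) and +41.0 kb (4.17 and 3.64) lie downstream, nearer to a start of Etf1, a translation release factor gene. A region at +20.4 kb was found in replicate 2 alone, at 3.61. The only neighbouring gene with a start inside the window was Reep2, whose promoter had 7.79 and 6.23.

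Egr2 (ENSMUSG00000037868.15, chromosome 10, 67535475 to 67542188, plus strand) has 6 coding starts, and its main promoter region covered 67535317 to 67538244. Its signal value was 9.19 in replicate 1 and 7.65 in replicate 2, or 8.42 ± 1.09 (SD, n = 2), and its −log10 q was 347 and 188. The peak spanned 2928 and 2922 bp, wider than 99.4% of promoter peaks in each library. Its summits lay 1 base apart, at 67537541 and 67537542, 328 and 327 bp upstream of a start inside the gene rather than at the first start.

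As for Egr1, the Egr2 promoter ranked higher by −log10 q than by signal value. Its signal value was at percentile 31.5 and 22.9 and its −log10 q at 83.3 and 70.9. A second promoter region followed at 67538602 to 67539166, beside the last coding start at 67538683. It was weak in both libraries, with signal values of 1.89 and 2.03 and a −log10 q of 8.70 and 8.37.

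The Egr2 locus had 11 distal regions in both libraries, 8 of them upstream, where the window holds no other coding gene. The strongest was at +50.9 kb (67585795 to 67586889), beyond the neighbour Ado, with 12.4 and 10.7 and a −log10 q of 140 and 78.3. It is the region printed above with an AP-1 and a RUNX match. The next were the regions at −5.7 kb (9.23 and 9.87) and +30.8 kb (9.29 and 9.55). By signal value all 3 exceeded the Egr2 promoter in both libraries, as did the regions at −31.7 kb and −37.8 kb given below. In replicate 1 the values at −5.7 kb, +30.8 kb and −37.8 kb were close to the promoter's 9.19. The −log10 q of the promoter (347 and 188) was above that of every distal region of the locus in both libraries.

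At −23.1 kb (67512132 to 67513034) the libraries disagreed most. The signal value was 12.0 in replicate 1 and 6.79 in replicate 2, a ratio of 1.77, and the −log10 q was 59.3 and 16.6. Of the 66847 regions in both libraries, 0.334% had a ratio at least as far from 1. The region is strong or middling according to the library, so its rank in the locus is not settled by these data. None of the 9 searched patterns is in its summit window.

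The other 6 upstream regions lined the way to the edge of the window. In order from the gene they were at −11.4 kb (8.27 and 8.49), −30.1 kb (5.06 and 5.18), −31.7 kb (9.99 and 8.48), −37.8 kb (9.23 and 8.11), −41.7 kb (7.29 and 7.93) and −46.9 kb (4.67 and 4.13). The summit at −37.8 kb lay 43 bp from the start of the lincRNA gene Gm32255, a long noncoding RNA, so it is distal only with respect to coding genes. The region at +29.3 kb had 7.65 and 6.45. Regions of a single library were weak: 1.76 at +6.9 kb and 1.90 at +46.6 kb in replicate 1, and 2.78 at −47.8 kb in replicate 2. Ado, which encodes a thiol dioxygenase, was the only neighbour with a start in the window, and its promoter had 8.82 and 9.89.

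Egr3 (ENSMUSG00000033730.4, chromosome 14, 70077203 to 70082614, plus strand) was the one member whose promoter summit was found in a single library. In replicate 1 a peak at 70076409 to 70077611 had its summit 266 bp upstream of the first start, with a signal value of 4.16 and a −log10 q of 77.0. A separate peak at 70074495 to 70076002 had its summit at 70075003 and a signal value of 6.70. In replicate 2 a single peak ran from 70074502 to 70077611, over 3110 bp, with its summit at the same base 70075003, a signal value of 6.48 and a −log10 q of 133.

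The start of Egr3 was therefore covered by a peak in both libraries, and the libraries differed in whether the caller split the stretch. A start was covered in both libraries in 60.5% of coding genes. Of these, 204 genes, or 1.54%, lacked a summit within 1000 bp of a start in both libraries, and the immediate early genes Ier2 and Junb were among them. Counted by the covered start, all 4 EGR genes had an accessible promoter in both libraries, and counted by the summit 3 of 4 did, beside 62.8% of coding genes.

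The merged region with its summit at 70075003, at −2.2 kb, is distal by its summit but also covers the first Egr3 start. With it, Egr3 had 12 distal regions in both libraries, close to the 11 of Egr2. The order of these 2 loci turned with the settings: Egr2 had 10 and Egr3 8 with the 50000 strongest peaks of each library, and each had 12 in replicate 2 alone and 13 in replicate 1 alone. The strongest was at −20 kb (70056032 to 70057770), in an intron of Pebp4, with 10.2 and 9.82. Its −log10 q of 525 and 368 was the highest in the 4 loci in both libraries, above every promoter. Its summit lay 195 bp from the start of Gm33524, an antisense gene of Pebp4, and it is the printed window with AP-1, RUNX and NF-kB matches.

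The next 3 in mean signal value around Egr3 lie in or near other genes. That at +29.6 kb (9.22 and 8.74) is in an intron of Bin3, and that at −48.6 kb (8.24 and 7.91) is in an intron of Pebp4. The intergenic region at +19.3 kb had 7.90 and 8.27, and lies 3621 bp before the Bin3 start. A weaker region at +37.0 kb, also in a Bin3 intron, had 5.46 and 5.94. The Bin3 promoter, of a gene for a BAR-domain protein, had 9.98 and 8.64.

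A run of regions lay between Pebp4 and Egr3. They were at −15.4 kb (3.59 and 3.11), −11.3 kb (6.67 and 5.60), −9.2 kb (5.35 and 6.17) and −7.9 kb (2.46 and 2.25), besides the −2.2 kb region described above. Inside the gene, a weak intronic region at +1.3 kb had 1.93 and 2.11, its summit 1164 bp from a coding start and 261 bp from a start of a noncoding Egr3 transcript. It was the nearest to the promoter limit of 1000 bp from outside, and the Ado promoter, with its summit at 376 bp, was the nearest from inside. The region at +7.2 kb had 2.80 and 3.07. A region at +14.0 kb was found in replicate 1 alone, at 5.90 with a −log10 q of 20.2, the strongest of the 6 regions of a single library.

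Egr4 (ENSMUSG00000071341.4, chromosome 6, 85511121 to 85513589, minus strand) had 1 coding start and 1 promoter region in both libraries. Its signal value was 7.61 in replicate 1 and 6.36 in replicate 2, or 6.98 ± 0.884 (SD, n = 2). The summit was at the same base in both, 85513727, 138 bp upstream of the start. Replicate 1 had a single peak of 3257 bp that covered the whole gene. In replicate 2 the stretch was split into a promoter peak of 1060 bp and a peak of 1330 bp over the end of the gene, with a signal value of 5.99.

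Unlike Egr1 and Egr2, Egr4 ranked low by both values. Its signal value was at percentile 20.8 and 14.8 and its −log10 q, 41.3 and 23.3, at percentile 14.3 and 11.1. Its distal regions in both libraries were 3, all downstream and all within Fbxo41, an F-box protein gene: +36.0 kb in an intron (9.76 and 7.64), +29.0 kb in a coding exon (6.95 and 7.64) and +43.4 kb in a UTR (3.49 and 3.91). In replicate 2 the first of these had exactly the same signal value and −log10 q (20.4) as the second. Such ties are common in the lists, where 43.0% of peaks in replicate 1 and 50.2% in replicate 2 share both values with another peak.

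No region was found upstream of Egr4 within 50 kb in either library, apart from the promoter. The Fbxo41 promoter had 8.44 and 7.21. Cct7, a chaperonin subunit gene, begins outside the window, so its first start was not looked at here. A further coding start of Cct7 lies inside the window, without a summit within 1000 bp. A region in a Cct7 intron at +48.0 kb was found in replicate 1 alone, at 3.14.

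The 4 loci differed in how many distal regions they held. As many as the 6 of Egr1 were found for 37.0% of coding genes, as many as the 11 of Egr2 for 9.17%, as many as the 12 of Egr3 for 7.02% and as many as the 3 of Egr4 for 64.6%. Windows of long genes are larger, so the 7763 genes under 10 kb were also counted: 23.0%, 2.49%, 1.49% and 50.9% had as many. Egr2 and Egr3 were in the upper tail of both counts, and Egr4 was near the middle. Egr1, with 6, stood above the median of both counts, which was 4 regions for all genes and 3 for short genes. Neighbouring genes share regions, so genes are not independent here.

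**Figure D2:**
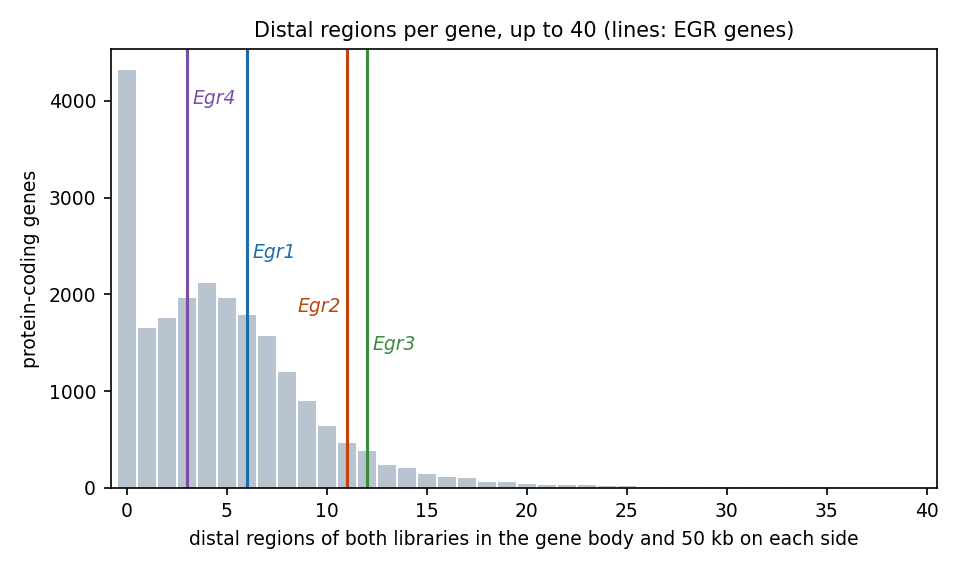
Number of distal regions of both libraries per locus (x axis) for the protein-coding genes (y axis, number of genes); coloured lines mark the EGR genes. Genes with more than 40 regions are not drawn; Egr4 with 3 and Egr1 with 6 lie in the bulk, and Egr2 with 11 and Egr3 with 12 lie in the upper tail.

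Position and strength of the distal regions can be summed up by counts. Of the 32 found in both libraries, 18 lay upstream of the member and 14 downstream, and 23 were intergenic, 7 intronic, 1 in a UTR and 1 in a coding exon. Their median signal value was 6.82 in replicate 1 and 6.46 in replicate 2, beside 6.68 and 6.41 for all distal regions in both libraries. The medians were thus near those of all distal regions, while the number of regions around Egr2 and Egr3 ranked high.

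Replicate 1 gave the higher signal value in 26 of the 40 regions found in both libraries, and in 62.7% of all such regions. The median ratio of replicate 1 to replicate 2 was 1.05 in the EGR loci and 1.04 over all regions. The −log10 q was higher in replicate 1 in 39 of the 40 regions and in 86.5% of all regions. Both values leaned to replicate 1 in the loci as in the whole lists. The depth of the libraries is unknown, and its part in the −log10 q was not tested.

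**Figure D3:**
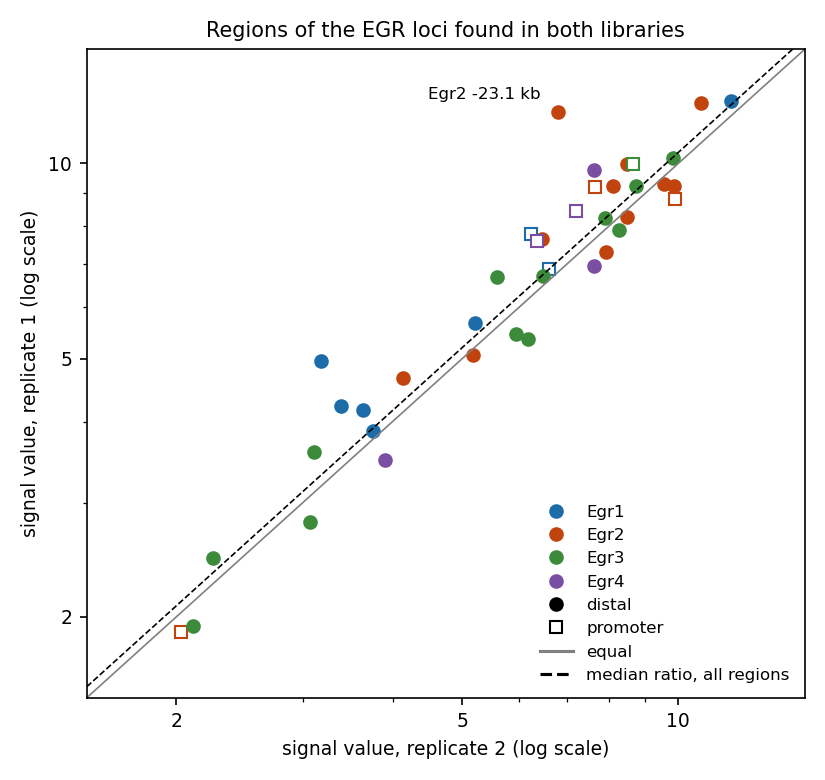
Signal value of the 40 regions found in both libraries, replicate 2 on the x axis and replicate 1 on the y axis, both on log scales; colours give the member, filled circles are distal regions and open squares promoters of the members and their neighbours. The grey line marks equal values and the dashed line the median ratio of all regions, 1.04; the Egr2 region at −23.1 kb lies farthest from it, at 12.0 and 6.79.

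Among other immediate early genes, a promoter that ranked higher by −log10 q than by signal value was common. Of the 30 such genes listed, 28 had a promoter summit in both libraries, and 30 of 30 had a covered start. The shares over all coding genes were 62.8% and 60.5%. In 27 of the 28 the −log10 q ranked above the signal value in both libraries, as it did for Egr1 and Egr2, beside 44.3% of all genes with a promoter in both. Their median signal percentile was 23.0 and 24.4, and their median −log10 q percentile 59.6 and 60.0. Egr4 went the other way, with its −log10 q ranked below its signal value in both libraries. A −log10 q ranked above the signal value was not particular to immediate early genes. It was found in both libraries for all 10 T-cell markers. Among the lists below, it was found for 6 of 11 upstream factors, 5 of 6 corepressors and relatives and 12 of 18 genes linked to EGR factors.

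**Figure D4:**
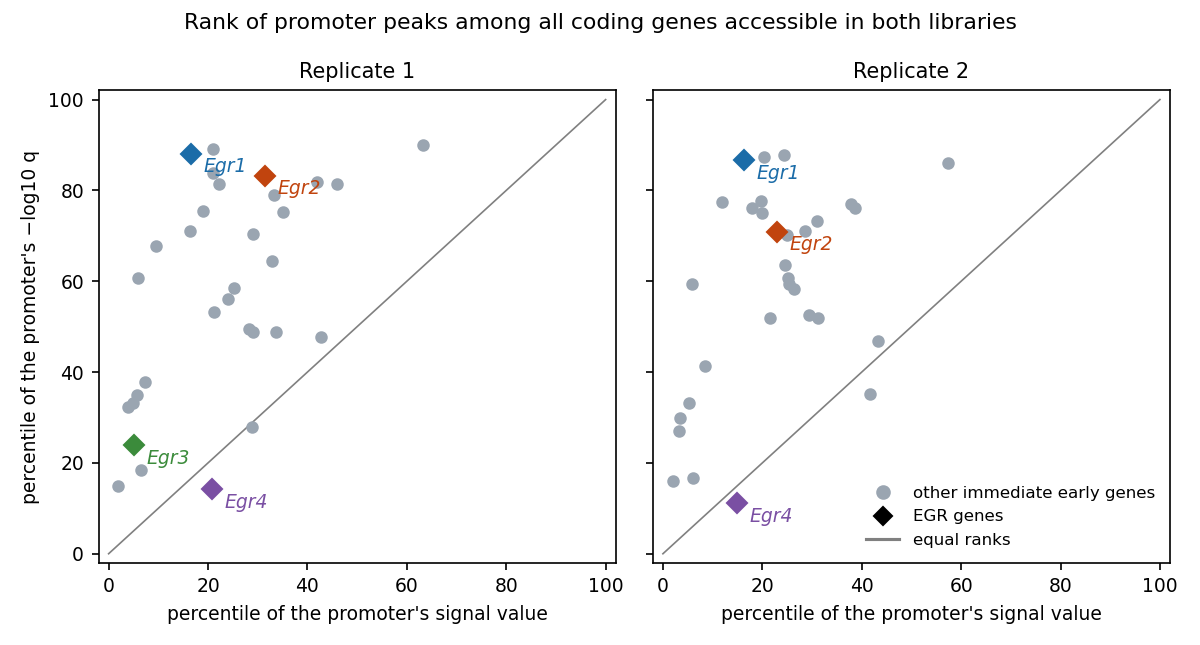
Percentile of each promoter's signal value (x axis) and −log10 q (y axis) among the 13724 genes with a promoter in both libraries, for replicate 1 (left) and replicate 2 (right); diamonds are EGR genes, grey points the other immediate early genes, and the line marks equal ranks. Egr1 and Egr2 lie well above the line in both libraries and Egr4 lies below it; Egr3 has a promoter summit in replicate 1 alone.

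The list's strongest promoters were those of Srf (12.9 and 11.7), which encodes the factor that binds CArG boxes, and the orphan nuclear receptor gene Nr4a2 (10.6 and 10.2). Most distal regions were found for Zfp36l1 (18) and Dusp5 (16), and the median of the list was 10, beside 4 for all coding genes. In mean promoter signal the immediate early genes nearest to Egr1 were Jun (6.84) and Gadd45b (7.24), over 2 libraries. Jun and Gadd45b were also the nearest to Egr4, and Atf3 (8.40) and Fosb (8.64) were the nearest to Egr2. By number of distal regions, Egr1 was level with Arc, Gadd45b and Zfp36 at 6, Egr2 with Btg2, Csrnp1, Fosl2, Junb, Jund and Klf6 at 11, and Egr4 with Nr4a2 at 3. For Egr3 the nearest were Atf3, Ier5 and Klf2 at 13 and the same 6 genes as for Egr2 at 11.

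The listed genes that act upstream of EGR transcription were accessible in both libraries, though Elk3 only weakly in replicate 1. The Elk3 promoter had a signal value of 3.12 and a −log10 q of 4.32 in replicate 1, and 5.29 and 60.8 in replicate 2. All 11 listed (SRF, its ternary complex partners and cofactors, ERK kinases, CREB1 and NFAT factors) had a promoter in both libraries. The SRF cofactor genes Mrtfa (16.6 and 16.6) and Mrtfb (14.7 and 13.6) had the strongest, and Elk3 and Nfatc1 had the most distal regions, 23 each. The bodies of Elk3 and Nfatc1 are 63.7 and 107 kb long, so their windows are larger than those of the EGR genes. Over all coding genes, the share with a promoter in both libraries was 62.8%.

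All 6 genes of corepressors and relatives had a promoter in both libraries as well, beside 62.8% of coding genes. Nab1 had signal values of 9.65 and 8.12 and 9 distal regions, and Nab2 had 3.87 and 3.72 and 3 distal regions. The strongest promoters of the list were Ddx20 (18.2 and 17.5), a helicase gene, and Sp1 (9.73 and 9.56), which also had most distal regions, 11.

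Of 19 genes linked to EGR factors in T cells, 18 had a promoter in both libraries, beside 62.8% of coding genes. The exception was Crtam, a surface receptor gene, with a summit in replicate 1 alone, at 3.15. The strongest promoters belonged to the ubiquitin ligase genes Rnf128 (15.2 and 16.1) and Itch (15.3 and 13.3). Cblb, another ubiquitin ligase gene of anergic T cells, had most distal regions, 27, followed by Id3 with 16. The body of Cblb is 177 kb long and that of Id3 2.26 kb, so their windows differ in size. The list's median was 9 distal regions, beside 4 for all coding genes.

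CArG boxes, the SRF site, were found at the promoters of Egr1, Egr2 and Egr3. In these summit windows, 2 of the 8 promoter regions in the loci held at least 1, Egr1 with 3 matches and Egr2 with 1, beside 0.607% of 14013 promoter regions. Over the whole Egr1 region there were 5 matches, at 402, 364, 348, 100 and 78 bp upstream of the second start, the third of them at the summit itself. No other of the 66847 regions in both libraries held 5, and no other held 3 in the summit window. The Egr2 region held 2, at 370 and 68 bp upstream of a start, the first of them 42 bp from the summit. The merged Egr3 region at −2.2 kb held 2, of which 1 lay 356 bp upstream of the first start, inside the promoter peak of replicate 1, and the other 128 bp upstream of the summit.

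The same search was made in the 500 bp upstream of every coding start, a window chosen after these positions were seen. It found a CArG box at 4.43% of the 21853 coding genes, and at Egr1 (5 matches), Egr2 (2) and Egr3 (1) but not at Egr4. At least 2 were found at 0.165% of genes, and 5 or more at 1 gene, Egr1. Of the 30 other immediate early genes, 5 had one: Dusp5, Fos, Fosb, Srf and Zfp36. A match is a run of letters and not evidence of binding.

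The EGR consensus GCGNGGGCG was searched on both strands in the same windows; it can overlap the SP and KLF consensus GGGCGGG. None of the 8 promoter summits in the loci held it, beside 8.68% of promoter regions. Of the 32 distal regions 2 did, the Egr1 region at +27.7 kb with 2 matches and the Egr3 region at −2.2 kb with 1, beside 0.560% of distal regions. Both are GC-rich, at 72.6% and 68.2%. The Egr3 one is distal by its summit alone, since the merged region also covers the first Egr3 start. Over whole regions, matches were also found in 3 of the 8 promoter regions, beside 26.5% of all promoter regions. They were in the Egr1 promoter region (3, of which 2 overlap each other), the Egr4 promoter region (1) and the Fbxo41 promoter region (2). Of the 32 distal regions it was still 2, beside 1.63% of all distal regions.

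At the promoter summits of the listed genes, the EGR consensus was in 2 of 6 genes of corepressors and relatives (Nab1 and Nab2), in 2 of 11 upstream factor genes (Creb1 and Srf) and in 7 of 28 immediate early genes (Arc, Dusp1, Dusp2, Jund, Nr4a1, Srf and Zfp36). It was in 0 of 18 genes linked to EGR factors in T cells. Over all genes with a promoter in both libraries it was in 9.04%.

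Of the patterns of lymphocyte factors, AP-1, NFAT and NF-kB were found in the summit windows at shares near those of all distal regions. RUNX was found there at a lower share. AP-1 (TGANTCA) was in 10 of 32, or 31.3%, beside 29.9%. NFAT (TGGAAA) was in 8, or 25%, beside 21.7%. RUNX (TGTGGT) was in 4, or 12.5%, beside 23.6%, and NF-kB was in 3, or 9.38%, beside 6.39%. Over whole regions the shares were 56.3% for AP-1, 62.5% for NFAT, 46.9% for RUNX and 21.9% for NF-kB. Those of all distal regions were 43.9%, 53.4%, 52.0% and 13.6%. With 32 regions these shares are coarse, and none was tested. The Egr2 region at −30.1 kb held 3 NF-kB matches, and the Egr2 region at −11.4 kb held AP-1, NFAT and RUNX matches together. How many of all distal regions hold as many NF-kB matches, or the same combination, was not counted.

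Sites of other general factors were scarce in distal windows, in the loci as among all distal regions. ETS (CCGGAAG) was in 1 of 32 distal regions and 3 of 8 promoter regions, beside 1.81% and 13.2% of all. The promoter regions were those of Egr1, Ado and Bin3. SP and KLF matches were in 2 of 32 and 3 of 8, beside 4.07% and 38.4%. The CRE (TGACGTCA) was in none of the 40 regions, beside 0.830% of all regions in both libraries.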

How the data were processed

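The authors deposited 1 list of ATAC-seq peaks per library, in narrowPeak format on mm10, called on that library alone, per the deposited notes. The aligner, the peak caller and its threshold are not given in the sources used here. The authors' score in the fifth column was not used further. The deposited signal value is a ratio, read from its values as fold enrichment over local background, because the sources do not define it. The −log10 p and −log10 q were used as deposited by the authors, and the lowest −log10 q was 1.02 and 1.01. No scaling between libraries is stated, so values were ranked within a library. The depth of the libraries is unknown, and an absent region may only be one under the threshold. Peak names carry further words (ASTARR.insert, masked, dedup, sorted) that the sources do not explain.

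Only the autosomes and the sex chromosomes were used, with 78016 of 78104 and 74653 of 74733. Peaks of both libraries that overlapped by at least 1 bp were merged into 1 region, which took the stronger summit and, per library, the stronger peak. Genes were the 21853 protein-coding genes, with 54361 coding starts, of GENCODE mouse release 21, and sequence came from GRCm38, the same assembly. A gene had a promoter in both libraries when each library had a summit within 1000 bp of one of its coding starts. Percentiles are among genes with such a promoter. Its distal regions were the other regions of both libraries with a summit in the body and 50 kb on each side.

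The 9 consensus patterns were searched on both strands in 100 bp on each side of the summit (for the promoters of listed genes, that of replicate 1). All 4 members and all 46 regions are reported. From each gene list the 2 strongest promoters, the 2 genes with most distal regions and all without a promoter in both libraries are named, except for a few items not reported here, with the immediate early genes nearest to each member. The members, lists and patterns were chosen with earlier results of these data known. Alternatives changed the peaks used, the overlap, the promoter distance, the starts, the flank, the library and the search window. Merging, promoter calling and pattern search were tested on simulated data. Python 3.11.15, pandas 2.3.3, numpy 2.4.6 and matplotlib 3.10.9 were used.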

Additional observations from a re-analysis of the deposited data

How the results depend on the processing

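The count of 32 distal regions in both libraries depends on the window: a flank of 20 kb gave 12 (Egr1 2, Egr2 2, Egr3 8 and Egr4 0) and a flank of 100 kb gave 55 (Egr1 10, Egr2 20, Egr3 19 and Egr4 6). With the 50000 strongest peaks of each library, Egr1 had 2 distal regions in place of 6. With 1 library alone the total was 35 and 36. Egr3 did not lead Egr2 in distal regions with the 100 kb flank, with the 50000 strongest peaks (8 and 10) or with 1 library alone, and they were level at 11 with a promoter distance of 2000 bp or an overlap of 50%, and at 10 with starts of all transcripts. Egr3 counted as having a promoter in both libraries, which made 4 members, when the distance was 2000 bp or when starts of all transcripts were used, in both cases through its weak region at +1.3 kb, and when a covered start sufficed, an alternative chosen after the data were seen. Replicate 1 alone also gave 4 members. Summed over its promoter peaks, the mean Egr2 signal value was 10.4 in place of 8.42. Over all 40 regions in both libraries, the number with a consensus match changed when the summit window was narrowed to 51 bp or widened to the whole region: EGR from 2 to 0 and 5, AP-1 from 10 to 5 and 20, ETS from 4 to 1 and 9, RUNX from 4 to 1 and 19, SP and KLF from 5 to 1 and 13, NFAT from 9 to 2 and 23, CArG box from 2 to 1 and 4, and NF-kB from 4 to 2 and 10. The other 79 values stayed within 1.5 times the count or within the spread of the libraries. No paired analysis was possible because there is only 1 group.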
